A study of Homo sapiens with 2 samples.

Results

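The 9 genes described here encode enzymes that make pyrimidine nucleotides and the deoxynucleotides of DNA: CAD, DHODH, UMPS, CTPS1, RRM1, RRM2, TYMS, DUT and TK1. They were chosen by symbol from the 58302 genes of the deposited expression table, and each symbol occurred once there. All 9 passed the filter on low values (1 FPKM or more in at least 1 library), which 11525 genes passed. FPKM is fragments per kilobase of transcript, scaled to the library total, so levels of different genes can be compared per length. None of the 9 differed 1.5-fold between the libraries, where 7.17% of the genes that passed did. With so few genes a count of 0 is near that share. The 9 stayed between 0.853 and 1.143 times their level with doxycycline, and their summed level was 223.5 FPKM in both libraries.

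The study compared HL60 cells, an established human acute myeloid leukemia line, that carry an EIF2S3 transgene under the Retro-X Tet-Off Advanced system. EIF2S3 encodes a subunit of eIF2, the factor that brings the initiator tRNA to the ribosome. In a Tet-Off line a tetracycline-controlled activator drives the transgene until doxycycline is added. The group DOX(-) is the untreated line, in which the transgene is meant to be on, and the group DOX(+) is the same line treated with doxycycline, in which it is meant to be off. Each group is 1 RNA-seq library of total RNA. Both carry the activator and the transgene, so doxycycline itself also differs between them. The sources used here do not state its dose or duration, or whether the line is 1 clone. Without replicate libraries no difference has a p-value, and every ratio below compares 2 libraries, not 2 conditions.

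Cells build UMP, the parent of all pyrimidine nucleotides, from simple precursors. CAD carries out the opening steps, DHODH oxidises dihydroorotate at the inner mitochondrial membrane and passes the electrons to ubiquinone, and UMPS completes UMP. CTPS1 turns UTP into CTP. Ribonucleotide reductase, built from the catalytic subunit RRM1 and the radical-bearing subunit RRM2, converts ribonucleotides to deoxyribonucleotides. DUT hydrolyses dUTP to dUMP, TYMS methylates dUMP to dTMP, and TK1 salvages thymidine in the cytosol. Proliferating leukemia cells depend on this supply for S phase, and several of these enzymes are targets of established drugs.

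The library labelled DOX(-) held 16577731 fragments and that labelled DOX(+) 18519439, recovered from the steps in the FPKM values. EIF2S3 was at 132.9 FPKM without and 126.2 FPKM with doxycycline, a ratio of 1.053 with counting intervals of 0.927 to 1.196 and 1.017 to 1.090 (shortest and longest transcript, explained below). The gene total thus does not show a clear excess in the library labelled DOX(-), and the sources used here do not say whether transgene transcripts count towards it. The groups are named below as the libraries are labelled. Of the promyelocyte markers, ELANE was at 396.4 and 299.4 FPKM and CTSG at 689.2 and 569.8 FPKM, but MPO, the defining myeloperoxidase, was at 0.274 and 0.469 FPKM. The promyelocyte list of 6 markers summed to 1348 and 1075 FPKM. Markers of other lineages were at or near 0 except HBA1 among 5 erythroid markers (list sum 1.61 and 4.11 FPKM), NKG7 among 5 lymphoid markers (19.7 and 12.8 FPKM) and PECAM1 among 5 epithelial and stromal markers (10.8 and 11.9 FPKM). CD3E, CD3D, MS4A1, EPCAM, KRT18, COL1A2 and HBB were listed at 0 in both libraries. The part of these marker differences in the values below was not tested.

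Promoter sequence was searched for letters known as binding sites of MYC (CACGTG, the E-box), of E2F factors (TTTCGCGC, TTTGGCGC or TTTCCCGC) and of NF-Y (CCAAT), because MYC, a known regulator of CAD, differed between the libraries and because the deoxynucleotide genes are textbook genes of S phase. MYC was at 29.5 FPKM without and 2.06 FPKM with doxycycline. E2F1 was at 10.1 and 11.95 FPKM. Windows of 250 bases before and 50 after each RefSeq start (GRCh38.p14) were searched on both strands, and all 9 members matched an entry. None of these strings of letters contains another. Printed here are the E-box and E2F matches of the members and, of the CCAAT matches, the repeated ones of RRM2 and TK1. The single CCAAT matches of CAD, DHODH and RRM1, and that of the upstream RRM2 start, are not printed. Capitals mark the match, and each 30-base site is written 5′ to 3′ on the strand of the gene.
DHODH, chr16:72008573-72008602, plus strand, E-box 159 bases before the start: gccgctactgcgCACGTGcacccaaccaga
TYMS, chr18:657603-657632, plus strand, E2F letters 39 bases before the start: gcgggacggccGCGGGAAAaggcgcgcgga
DUT, chr15:48332151-48332180, plus strand, 2 E2F matches that begin 42 bases before the most downstream start: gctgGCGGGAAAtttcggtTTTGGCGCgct
RRM2, chr2:10122603-10122632, plus strand, CCAAT 123 bases before the downstream start: gggcaaggcgcagCCAATgggaagggtcgg
RRM2, chr2:10122633-10122662, plus strand, CCAAT 93 bases before the same start: aggcatggcacagCCAATgggaagggccgg
RRM2, chr2:10122660-10122689, plus strand, CCAAT 66 bases before the same start: cggggcaccaaagCCAATgggaagggccgg
TK1, chr17:78187113-78187142, minus strand, reversed CCAAT 77 bases before the downstream start: cggccgggcgctgATTGGccccatggcggc
TK1, chr17:78187082-78187111, minus strand, reversed CCAAT 46 bases before the same start: gggccggctcgtgATTGGccagcacgccgt
The DHODH site lay partly (15 of 30 bases) and the TYMS site almost wholly (29 bases) in exons of other annotated transcripts of the same gene, and the DUT, RRM2 and TK1 sites lay wholly in such exons.

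The members have 15 windows, since some have several starts, among 35116 windows of all genes. The E-box was in 1 of the 15, that of DHODH, and in 7.26% of all windows. The E2F letters were in 2 of the 15, of DUT and TYMS, and in 2.74% of all. CCAAT was in 6 of the 15, of CAD, DHODH, RRM1, RRM2 and TK1, and in 34.6% of all. The GC box, GGGCGG, was in 10 of the 15, of all members but TYMS and UMPS, and in 44.95% of all. These matches describe the letters and not binding, and a window without a match says only that the letters are not in it. The levels of the genes whose sites are printed are described below. DHODH, with the E-box, had a DOX(-) to DOX(+) ratio of 1.08, and DUT and TYMS, with E2F letters, had ratios of 0.869 and 1.024. RRM2 and TK1, with repeated CCAAT, had ratios of 1.008 and 0.860. A relation of the letters to the ratios was not tested.

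Levels spanned 22.5-fold across the members in DOX(-) and 23.7-fold in DOX(+), in nearly the same order in both. In DOX(-) the order from the highest was TYMS, RRM2, RRM1, CAD, CTPS1, TK1, DUT, UMPS and DHODH, and in DOX(+) only CAD and CTPS1 changed places. TYMS stood above 95.8% of tested genes in DOX(-), and DHODH above 37.3%. To see which neighbours differ by more than counting error, fragments were estimated from FPKM with the shortest and with the longest annotated transcript of each gene, since the transcripts behind each value are not known. By either length TYMS was above RRM2, RRM2 above RRM1 and DUT above UMPS in both libraries. TK1 and DUT could not be separated by either length in DOX(-), where TK1 was 1.13 times DUT (95% counting interval 0.804 to 1.60 with the shortest and 0.986 to 1.29 with the longest transcript). CAD and CTPS1 could be separated with the longest transcripts only, as could RRM1 and CAD or UMPS and DHODH in DOX(-) and CAD and TK1 or TK1 and DUT in DOX(+). These exact conditional intervals cover counting error only, and not variation between libraries, since each group is 1 library. PCR copies of a molecule cannot be recognised here, so the intervals can be too narrow even for counting error.

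**Figure D1:**
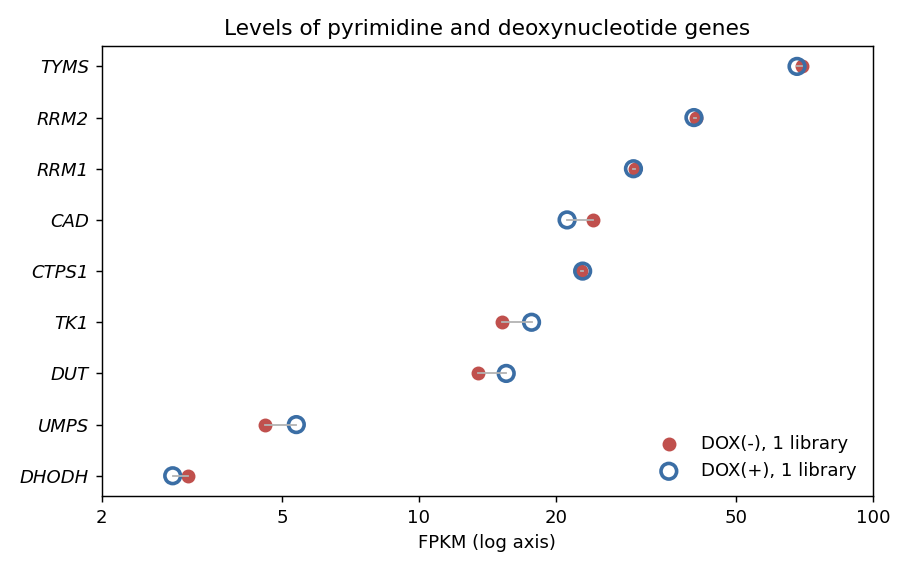
FPKM (log axis) of the 9 genes in the library labelled DOX(-) (filled points) and the library labelled DOX(+) (open circles), 1 library each, so that no error bar can be drawn. The points of TYMS, RRM2, RRM1 and CTPS1 nearly coincide, CAD and DHODH were higher in DOX(-), and TK1, DUT and UMPS were higher in DOX(+).

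Between the libraries, 0 of the 9 members were 1.5-fold apart on the log2(FPKM + 1) scale, where 7.17% of all tested genes were, and 0 were 2-fold apart, where 2.03% were. In each direction the 2-fold background was 0.833% higher in DOX(-) and 1.2% lower. None of the 9 reached even a difference of 0.32 on the log2 scale, which 22.9% of tested genes did, and neither did any of the 8 members at 5 FPKM or more, against 21.4% of genes at that level. The largest member difference, 0.21 in size on the log2 scale, was one that 57.9% of all tested genes did not exceed. The members' log2 ratios had a median of 0.01, with 5 above 0 and 4 below, beside a median of -0.02 for all tested genes. In bulk RNA fewer cells in S phase and less transcript per cell cannot be told apart.

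**Figure D2:**
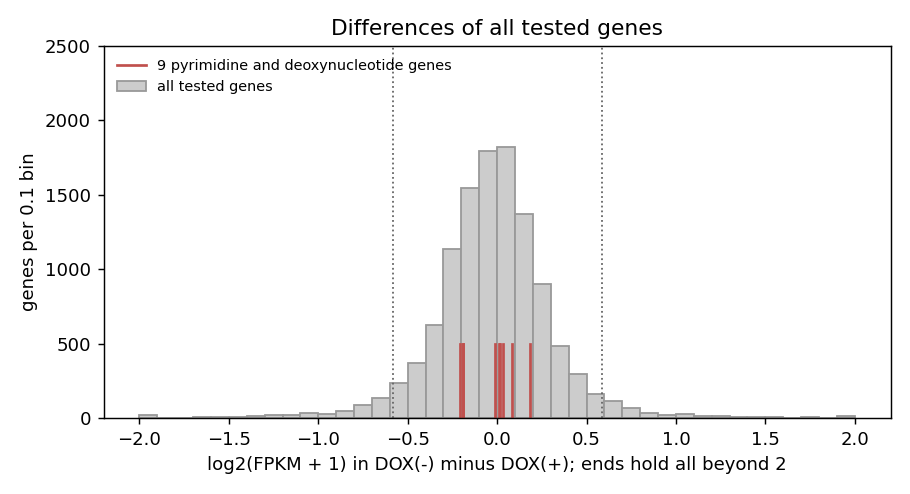
Number of tested genes per bin of 0.1 in the log2(FPKM + 1) difference, DOX(-) minus DOX(+), with the 9 members as red lines and 1.5-fold as dotted lines. All members lie between -0.21 and 0.18, and the end bins hold every gene beyond 2 in either direction.

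The 3 enzymes of UMP synthesis did not differ in one direction. CAD, the trifunctional enzyme that starts the pathway (ENSG00000084774, chromosome 2, 27217390 to 27243943, GRCh38), was at 24.2 FPKM without and 21.2 FPKM with doxycycline. It was thus the member with the highest ratio, 1.143, whose counting interval was 0.900 to 1.45 with the shortest transcript and 1.085 to 1.204 with the longest. CAD is a textbook target of MYC, whose own ratio was 14.3 (8.27 to 27.8 and 11.6 to 18.0). A link between these ratios was not tested.

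DHODH (ENSG00000102967, chromosome 16, 72008588 to 72027664) was at 3.10 FPKM without and 2.87 FPKM with doxycycline, the lowest level of the 9 in both libraries. Its ratio of 1.08 had counting intervals that included equal levels by both lengths (0.568 to 2.01 and 0.905 to 1.29). UMPS, the bifunctional enzyme that finishes UMP (ENSG00000114491, chromosome 3, 124730366 to 124749273), went the other way, at 4.58 FPKM without and 5.37 FPKM with doxycycline. Its plain ratio of 0.853 was the lowest of the members, with an interval of 0.414 to 1.61 by the shortest transcript and 0.759 to 0.959 by the longest. CAD transcripts therefore outnumbered those of UMPS 5.28-fold per length in DOX(-) and 3.95-fold in DOX(+), and those of DHODH 7.82-fold and 7.38-fold.

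CTPS1, which supplies CTP (ENSG00000171793, chromosome 1, 40979335 to 41012565), was at 22.7 FPKM without and 22.9 FPKM with doxycycline, a ratio of 0.992 (0.829 to 1.18 and 0.933 to 1.054). CTPS2, its paralog, was at 0.0245 and 0.0146 FPKM, no more than 2 and 1 fragments with its longest transcript. That is below the floor of 3 fragments in both libraries, so CTPS1 was the CTP synthase transcript detected at this depth. Of the kinases that precede CTPS1, CMPK1, which phosphorylates UMP and CMP, was at 24.9 and 31.1 FPKM (ratio 0.799, interval 0.693 to 0.922 with the shortest transcript). NME1 and NME2, nucleoside diphosphate kinases, had levels of 41.7 and 37.1 FPKM, and of 54.0 and 47.2 FPKM, respectively.

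**Figure D3:**
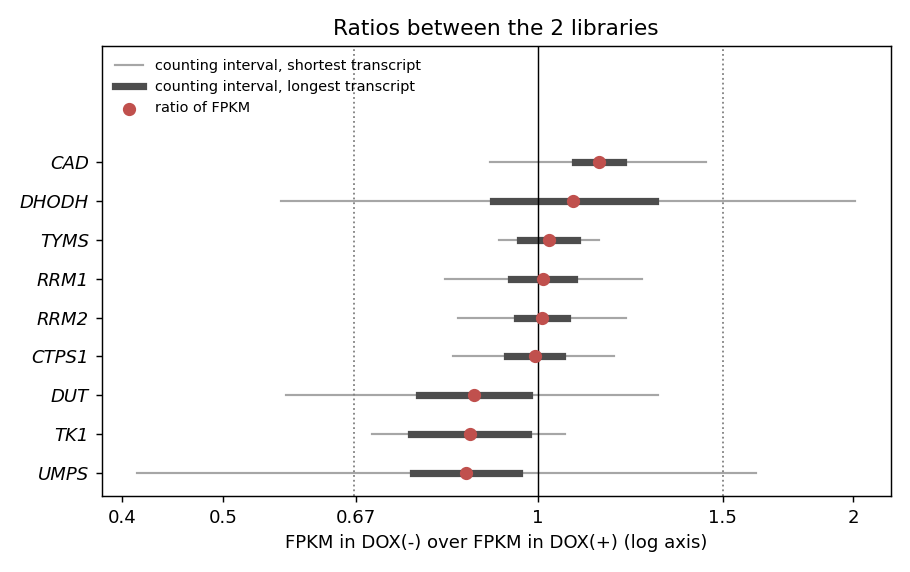
Ratio of FPKM in DOX(-) to FPKM in DOX(+) (log axis, red points) of the 9 genes, with 95% counting intervals from the shortest (thin lines) and the longest annotated transcript (thick lines). With the shortest transcript 0 of 9 intervals exclude equal levels, and with the longest 4 do: CAD above 1, and UMPS, TK1 and DUT below it. The dotted lines mark 1.5-fold.

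The subunits of ribonucleotide reductase were, with CTPS1, the members closest to equality. RRM1 (ENSG00000167325, chromosome 11, 4094707 to 4138876) was at 29.96 FPKM without and 29.7 FPKM with doxycycline, a ratio of 1.010 (0.815 to 1.26 and 0.943 to 1.082). RRM2 (ENSG00000171848, chromosome 2, 10120698 to 10131419) was at 40.6 FPKM and 40.3 FPKM, a ratio of 1.008 (0.838 to 1.21 and 0.955 to 1.065). RRM2 stood 1.36-fold above RRM1 in each library. RRM2B, the p53-inducible alternative to RRM2, was at 7.29 FPKM without and 9.88 FPKM with doxycycline, a ratio of 0.738. Its interval was 0.415 to 1.24 with the shortest transcript and 0.664 to 0.820 with the longest. RRM2 exceeded RRM2B 5.57-fold in DOX(-) and 4.08-fold in DOX(+).

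The value of RRM2 is uncertain, because the gene model AC007240.1 lies on the same strand and shares 1077 bases of exon with it, 20.2% of the exon sequence of RRM2. AC007240.1 was at 1.904 FPKM without and 9.39 FPKM with doxycycline, 4.93-fold higher with doxycycline (counting interval 3.27 to 7.52 with the shortest and 3.76 to 6.56 with the longest transcript). Fragments from shared exons can be given to either model. When the FPKM of both models were added, an alternative chosen after seeing the data, the sum was 42.5 and 49.7 FPKM, a ratio of 0.856. The log2 ratio of the sum was -0.22, beside 0.01 for RRM2 alone. Only 41.0% of the exon sequence of AC007240.1 is shared, so the sum also holds signal from exons outside RRM2. It is therefore not a value of RRM2 itself. The processed pseudogene RRM2P3 was at 1.400 and 1.62 FPKM and RRM2P2 at 0.278 and 0.0828 FPKM. Of 13 listed pseudogenes of RRM2, DUT and TYMS, chosen after their values were seen, the only other one above 0 was DUTP6, at 0.261 FPKM without doxycycline and listed at 0 with it.

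**Figure D4:**
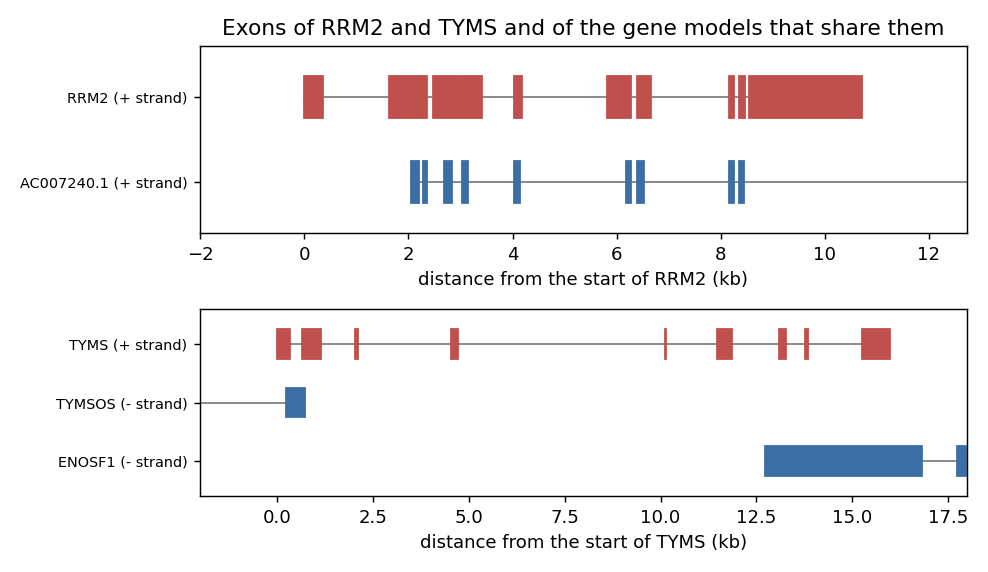
Merged exons (boxes) of RRM2 and TYMS (red) and of gene models that share exon sequence with them (blue), against distance from the start of each member in kb (GENCODE 29). AC007240.1 repeats RRM2 exons on the same strand and runs on to the right, while TYMSOS and ENOSF1 overlap the ends of TYMS on the other strand.

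TYMS, the target of fluoropyrimidine drugs (ENSG00000176890, chromosome 18, 657604 to 673578), was the most abundant member, at 69.6 FPKM without and 68.0 FPKM with doxycycline. Its ratio of 1.024 had the narrowest interval with the shortest transcripts, 0.916 to 1.14. TYMS shares 39.1% of its exon sequence with ENOSF1 on the other strand (1.66 and 1.88 FPKM) and 7.41% with TYMSOS (1.33 and 1.19 FPKM), and the sources used here do not say whether the counting used strand. Both partners were far below TYMS.

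DUT, which keeps uracil out of DNA (ENSG00000128951, chromosome 15, 48331011 to 48343373), was at 13.5 FPKM without and 15.6 FPKM with doxycycline, a ratio of 0.869. Its interval was 0.574 to 1.302 with the shortest transcript and 0.769 to 0.979 with the longest. DUT shares 14.5% of its exon sequence with the antisense gene AC023355.1, which was at 0.184 and 0.262 FPKM. TK1 (ENSG00000167900, chromosome 17, 78174075 to 78187233) was at 15.2 FPKM without and 17.7 FPKM with doxycycline, a ratio of 0.860 (0.693 to 1.060 and 0.756 to 0.977). DUT thus stood 1.15-fold and TK1 1.16-fold lower in DOX(-), to a degree like that of UMPS (1.17-fold). DUT and TK1 both feed the dTTP pool, but so does TYMS, whose ratio was 1.024. TK2, the mitochondrial thymidine kinase, was at 0.416 and 0.284 FPKM. RRM1 shares 63 bases of exon with RRM1-AS1, listed at 0 in both libraries, and CAD, DHODH, UMPS, CTPS1 and TK1 share exon sequence with no other annotated gene.

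The rest of the pathway was read from 13 lists of 92 genes in all, the members included, of which 82 passed the filter. Of the 82, 3 were at least 1.5-fold higher in DOX(-), where 3.11% of tested genes were, and 0 were 1.5-fold lower, where 4.06% were. Their median log2 ratio was 0.02. CDA and NT5M were among the 3. Of the 82, 0 differed 2-fold, where 2.03% of tested genes did, so that a count of 0 is near that share. At 0.32 on the log2 scale 9 were higher, where 9.98% of tested genes were, and 2 lower, where 12.9% were.

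CDA, the cytidine deaminase that also inactivates cytarabine, was at 11.3 FPKM without and 6.26 FPKM with doxycycline, a ratio of 1.81 with an interval of 1.38 to 2.40 by its shortest transcript. The interval lay above equal levels. NT5M, a mitochondrial nucleotidase of dUMP and dTMP, was at 2.72 and 1.46 FPKM, and its ratio of 1.86 had an interval of 0.818 to 4.28 with the shortest transcript and 1.277 to 2.79 with the longest. SAMHD1, which hydrolyses dNTPs, was at 1.60 and 2.84 FPKM, a log2 ratio of -0.56 just inside 1.5-fold, though its plain FPKM were 1.78-fold apart and past that fold. Its ratio of 0.563 had an interval of 0.281 to 1.14 with the shortest transcript and 0.459 to 0.691 with the longest.

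The other list members lay closer to equality. Of all tested genes 5373 were above 0 and 6152 below, which is the background for the counts that follow. In the list of thymidylate synthesis and its folate cycle 6 of 7 genes were above 0, with a median of 0.06, and SHMT2, the mitochondrial serine hydroxymethyltransferase, had the largest difference at 25.5 and 19.4 FPKM (log2 ratio 0.37). In the list of dUTP and dNTP removal 6 of 7 were below 0, with a median of -0.18. Of 7 tested salvage genes 4 were above 0 and the median was 0.01. UCK2, the uridine-cytidine kinase of rapidly dividing cells, was at 22.4 FPKM in both libraries, and DCK, which activates deoxycytidine and cytarabine, was at 11.4 and 13.3 FPKM.

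**Figure D5:**
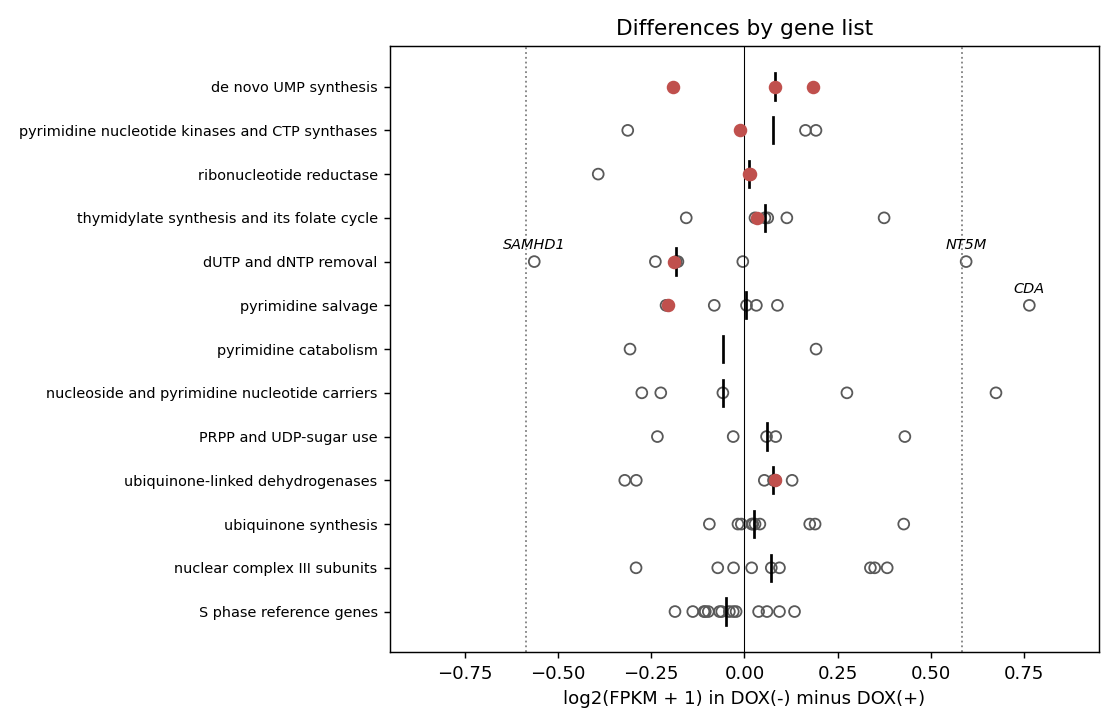
Difference in log2(FPKM + 1), DOX(-) minus DOX(+), of the tested genes of 13 lists (open circles; members in red), with list medians as black bars and 1.5-fold as dotted lines. 3 points, CDA and NT5M among them, lie beyond the line on the right, SAMHD1 lies just inside the line on the left, and all red points lie near 0.

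DHODH links UMP synthesis to the respiratory chain, so the genes of ubiquinone and of complex III, which takes the electrons onward, were set beside it. In the list of 10 genes of dehydrogenases that reduce ubiquinone, SDHA, SDHB, SDHC and SDHD all encode subunits of complex II. Of the 10 genes 7 were tested, DHODH and these subunits among them. Of the 7 tested genes, 0 differed 1.5-fold, where 7.17% of all tested genes did, and the median log2 ratio was 0.08. DHODH was far less abundant than SDHA (26.5 and 25.0 FPKM) and SQOR, which oxidises sulfide (58.5 and 55.4 FPKM, 18.9 and 19.3 times DHODH). The gap to complex II varied by subunit. SDHB was at 55.5 and 53.4 FPKM, but SDHD at 8.59 and 10.7 FPKM and SDHC at 5.44 and 4.89 FPKM. ETFDH, which accepts electrons from fatty acid oxidation, was at 5.10 and 6.62 FPKM. GPD2 was at 0.107 and 0.0956 FPKM, and PRODH was listed at 0 in both libraries.

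All 10 genes of ubiquinone synthesis were tested, with a median of 0.03, and 0 differed 1.5-fold, where 7.17% of all tested genes did. COQ8A, an atypical kinase needed for ubiquinone, had the largest difference at 6.68 and 4.71 FPKM (log2 ratio 0.43). Of the 9 nuclear genes of complex III, 6 were above 0 and 0 differed 1.5-fold (median 0.07), with CYC1, the cytochrome c1 gene, at 72.1 and 55.0 FPKM (log2 ratio 0.38). MT-CYB, the subunit encoded in mitochondria and named here after its value was seen, was lower in DOX(-), at 2892 and 3508 FPKM (log2 ratio -0.28). The share of all FPKM in mitochondrial genes was 22.5% without and 27.7% with doxycycline, which bears on all other values because FPKM is relative to the total.

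The 14 genes of S phase, which include PCNA and the MCM2 to MCM7 helicase genes, gave a reference for the deoxynucleotide genes. Of these 14, 0 differed 1.5-fold, where 7.17% of all tested genes did. Among the 14, 4 were above 0 and 10 below, and their median log2 ratio was -0.05. Their values ran from -0.19 for FEN1, the flap endonuclease gene (34.1 and 39.0 FPKM), to 0.13 for the primase subunit gene PRIM1 (14.4 and 13.0 FPKM). DUT (-0.19) and TK1 (-0.21) lay just beyond the low end of this range, and RRM1 (0.01), RRM2 (0.01) and TYMS (0.03) within it.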

How the data were processed

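Per the file headers, the deposited values are FPKM, 1 for each gene in each library. Among the tools in the submitters' processing notes are HISAT2 2.1.0, CASAVA 1.8, edgeR and StringTie 1.3.4b, and the builds listed there are GRCh38 and hg38, without roles. The sources used here do not give the annotation release, strand setting or filters. No count model was fitted. Differences are log2(FPKM + 1), DOX(-) minus DOX(+), over genes of 1 FPKM or more in either library. The pseudocount pulls low genes towards 0. Rules of size (1.5-fold and 2-fold) replaced tests.

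Depth came from genes with 1 transcript in GENCODE 29 and the same locus there. At the recovered totals 99.98% of values up to 100 fragments in DOX(-) (5543 genes) and 99.97% in DOX(+) (5939 genes) were whole within 0.02 fragment. The floor of 3 fragments is 0.181 and 0.162 FPKM for 1 kb. The members' loci all matched that release. Intervals are 95% Clopper-Pearson, conditional on the fragments of both libraries.

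Named genes were the members, their paralogs RRM2B, CTPS2 and TK2, overlapping models, EIF2S3, and in each list those past 1.5-fold (1 is not reported here) or else the 1 with the largest difference. DCK, UCK2, NME1, NME2, SAMHD1, SDHA, SDHB, SDHC, SDHD, SQOR, GPD2, PRODH, PRIM1, MT-CYB, MYC and E2F1 were named after their values were seen. Members and lists were chosen with earlier results of these data known. Python 3.11.15, pandas 2.3.3 and scipy 1.17.1 were used, and the scripts were tested on simulated data.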

Additional observations from a re-analysis of the deposited data

How the results depend on the processing

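The count of members past 1.5-fold stayed at 0 under a pseudocount of 0.1, plain ratios, 3 other scalings, no filter or a filter at 5 FPKM, a rule of 0.32 on the log2 scale or of 2-fold, 1.5-fold together with an interval (shortest transcript) that excludes equal levels, and the 5 members without overlapping exons. Across these settings the members' log2 ratios ran from -0.27 to 0.21. The signs of CTPS1, RRM1, RRM2 and TYMS turned: CTPS1 to 0.01 under median-of-ratios and 0.02 under trimmed-mean scaling, and RRM1, RRM2 and TYMS to -0.05, -0.06 and -0.04 when the total was taken without mitochondrial genes. The members' median turned to -0.06 there, to -0.01 without overlapping members or with AC007240.1 added to RRM2, and the mean was -0.03. No scaling moved the median of all tested genes by over 0.1. The count of pathway genes past 1.5-fold was 3 of 82, where 7.17% of tested genes were. At 2-fold it was 0, where 2.03% were, and at 0.32 on the log2 scale 11 (9 higher and 2 lower), where 22.9% were. It was 4 with a pseudocount of 0.1 or plain ratios, where SAMHD1 entered as lower, and 2 at 5 FPKM or more, with the interval required, or without overlapping exons. Under the scaling without mitochondrial genes it stayed at 3, but NT5M left and SAMHD1 entered as lower. No paired analysis was possible because each group is 1 library. With the shortest transcripts the intervals of UMPS, DHODH and DUT were the widest, but those of UMPS and DUT are only 228 and 201 bases long. With the longest transcripts DHODH had the fewest fragments of the members, 248 and 256, and the widest interval.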

Other observations

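Genes that bring precursors to the pathway or carry its products were not described above. PRPS1, which makes the ribose donor PRPP that UMPS uses, was at 33.1 FPKM without and 24.3 FPKM with doxycycline, a log2 ratio of 0.43 and a plain ratio of 1.36 (counting interval 1.126 to 1.65 with the shortest transcript). Its paralog PRPS2 was at 16.3 and 15.6 FPKM. SLC29A1, the main equilibrative nucleoside transporter, was at 57.1 and 59.5 FPKM, and SLC29A2 at 0.0336 and 0.0502 FPKM. The mitochondrial pyrimidine nucleotide carriers SLC25A33 and SLC25A36 had levels of 7.25 and 8.98 FPKM, and of 3.81 and 4.62 FPKM, respectively. Of the genes that degrade pyrimidines, NT5C3A, a pyrimidine nucleotidase, was at 2.66 and 3.52 FPKM, and DPYS was listed at 0 in both libraries. Apart from PRPS1 and NT5C3A, these genes were named after their values were seen.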
